A study of Homo sapiens with 4 samples.

Results

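The segment of chromosome 8 described here is the distal long arm, from 92000000 (build hg38) to the last peak of the chromosome, and is called distal 8q below. Its members are the H4K20me1 peaks of the deposited table that lie on chromosome 8 and start above 92000000. They number 904 of the 25514 peaks in the table. The comparison is with the 979 peaks of chromosome 8 that start below 92000000, called proximal chromosome 8 below. The segment was selected on its log2 fold changes, which stood higher than those of its neighbour, so fold changes are given as a description, with no test. Peak number, width, signal and position in genes were not used to choose it.

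H4K20me1 is histone H4 carrying a single methyl group on lysine 20. SETD8, also named KMT5A, is the enzyme that adds this group, and the mark is known from the bodies of many transcribed genes, from the inactive X chromosome and from the compaction of chromosomes in mitosis. Kasumi-1 is an acute myeloid leukemia cell line with a translocation between chromosomes 8 and 21 that joins RUNX1 to RUNX1T1. RUNX1T1 is read from the minus strand, and the chromosome 8 sequence on the far side of its break is carried by the other derivative chromosome. The place of the break was not measured in these data, and the border at 92000000 lies within the annotated RUNX1T1 gene (chromosome 8, 91954967 to 92103385).

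CUT&Tag with an antibody to H4K20me1 was made from 4 libraries of Kasumi-1 cells, at 100000 cells per library. In 2 libraries the genotype was WT and the title named a guide sgNT, and in the other 2 the genotype was a SETD8 knockout made with CRISPR/Cas9. Each group has a library marked with a number sign, and the labels do not say if that marks another guide or another library, nor that libraries came from separate cultures. The table holds 1 column per group, so no spread between libraries was available. The columns are not named by group. They are called first-listed and second-listed throughout. In the comparison's deposited name the treated group precedes the control, and by that order the knockout would be first-listed. The log2 fold change of a peak is first-listed minus second-listed.

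Each column equals whole reads times 1 factor, and the reads behind every peak could be recovered, with 1 as the lowest value allowed. The peaks of distal 8q held 127868 first-listed and 107591 second-listed reads, and the median peak held 77.5 and 73.0 reads. Intervals given with fold changes are exact Clopper-Pearson 95% intervals on those reads. They cover counting error only, and are too narrow where both ends of a fragment were counted. Neither input, nor an antibody-free library, nor spike-in DNA was used here, so a loss of the mark that is uniform over the genome cannot show, and the amount of DNA of a segment and the amount of mark on it cannot be told apart. H4K20me1 is no measure of expression: KIT, a receptor of myeloid blasts, had 10 peaks and RUNX1 had 26, but MPO and CD33 had none, and the neuronal gene RBFOX3 had 24.

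Distal 8q stood higher in the first-listed column than the rest of its chromosome. Its median log2 fold change was 0.21 (quartiles −0.04 and 0.47), beside 0.06 (−0.22 and 0.31) on proximal chromosome 8 and 0.06 over all peaks. The value was above 0 in 641 of 904 peaks (70.9%), against 58.2% of all peaks and 54.9% of the proximal peaks. The segment held 4.58% of first-listed and 4.01% of second-listed reads in peaks, and proximal chromosome 8 held 3.00% and 3.01%. The log2 ratio of summed reads was 0.31 (0.29 to 0.32) beyond the border and 0.11 (0.09 to 0.12) below it. No whole chromosome had a median as high: chromosome 20 came first with 0.16, followed by chromosome 10 with 0.15. Chromosome 8 as a whole had 0.12, and chromosomes were not selected for high values as the segment was. Among 429 windows of 5 Mb with at least 20 peaks, 64 had a median of 0.2 or more. Over all peaks the 2 columns differ by a log2 ratio of summed reads of 0.11. With both columns scaled to equal reads in peaks, every fold change drops by 0.11, the distal median is 0.10 with 58.4% of peaks above 0, and the proximal median is −0.05 with 42.7%.

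Distal 8q had a larger share of high values and a smaller share of low ones than proximal chromosome 8. A log2 fold change of 0.5 or more was reached by 214 distal peaks (23.7%), against 13.9% of all peaks and 118 proximal peaks (12.1%). A value of −0.5 or less was found in 43 distal peaks (4.76%), against 8.71% of all peaks and 99 proximal peaks (10.1%). A value of 1 or more was reached by 16 distal peaks (1.77%), near the 1.55% of all peaks, and by 9 proximal peaks (0.919%). A value of −1 or less was found in 4 distal peaks (0.443%), beside 0.909% of all peaks and 6 proximal peaks (0.613%). These counts are small. In the authors' deposited table, 63 distal peaks (6.97%) combined an unadjusted p below 0.05 with a higher first-listed value, where 3.37% of all peaks did, and 9 had such a p and a lower value (0.996%, against 1.69% of all peaks). Proximal chromosome 8 had 28 and 14 such peaks. The authors' deposited table gave no distal peak an adjusted p below 0.05, and 0% of all peaks had one. The smallest unadjusted p of the segment was 0.00146, with an adjusted p of 0.649, so no peak named below passed the authors' test after adjustment.

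**Figure D1:**
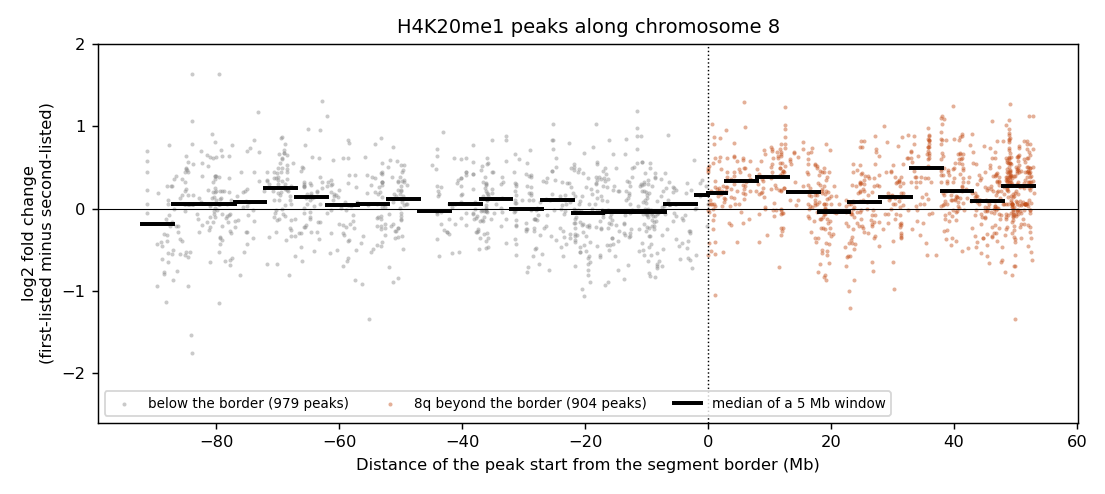
Log2 fold change of H4K20me1 peaks along chromosome 8 (vertical axis, first-listed minus second-listed) against the distance of the peak's start from the border at 92 Mb, with each peak as a point and the median of each 5 Mb window as a bar. Beyond 92 Mb 10 of 11 window medians lie above 0, with the highest, 0.50, at 125 to 130 Mb and the lowest, −0.04, at 110 to 115 Mb.

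The elevation was not even along the segment. In windows of 5 Mb, the median was 0.18 at 92 to 95 Mb (50 peaks), 0.34 at 95 to 100 Mb (48 peaks), 0.38 at 100 to 105 Mb (72 peaks) and 0.20 at 105 to 110 Mb (50 peaks). It was −0.04 at 110 to 115 Mb, where 72 peaks held 3736 and 4118 reads, a log2 ratio of −0.08 (−0.15 to −0.02). That stretch is poor in genes: 55 of its peaks were intergenic, 1 was in a promoter, and the peaks in genes belonged to LINC01608, LINC01609 and CSMD3, a very long gene known from neurons. Medians of 0.08 and 0.14 followed at 115 to 120 and 120 to 125 Mb.

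The window from 125 to 130 Mb had the highest median, 0.50, with 54 of 64 peaks above 0. Its peaks held 14515 first-listed and 9790 second-listed reads, a log2 ratio of 0.63 (0.59 to 0.66). It contained 20 of the 63 peaks with an unadjusted p below 0.05 and a higher value in the authors' deposited table, and none with a lower value. Among the 429 windows of the genome with at least 20 peaks, whose median was 0.08 and whose 5th to 95th percentiles ran from −0.20 to 0.27, it ranked 1. The windows at 100 to 105, 95 to 100 and 140 to 145 Mb ranked 6, 14 and 19. The last of these held 219 peaks, 82 of them in promoters, and 42.7% of the segment's first-listed reads, with a median of 0.28. Between these came medians of 0.22 at 130 to 135 Mb and 0.09 at 135 to 140 Mb. On proximal chromosome 8 the 18 window medians ran from −0.19 to 0.25, and 12 were above 0. With equal reads in peaks, 8 of 11 distal and 4 of 18 proximal windows were above 0.

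Measures that the choice of the segment did not use are given as descriptions, over peaks that are not independent replicates. Peaks were denser, at 17.1 per Mb and 21.6 kb of covered sequence per Mb, against 10.7 per Mb and 12.7 kb per Mb below the border. Of 261 protein-coding genes on the segment, 157 had a peak (60.2%, Wilson 95% interval 54.1% to 65.9%), against 205 of 454 below it (45.2%, 40.6% to 49.8%) and 37.6% over the genome. In median signal, distal peaks were near the table as a whole and proximal peaks were lower. The median peak of the table held 72.0 reads in either column, beside the 77.5 and 73.0 of distal and 59.0 and 64.0 of proximal peaks. The median signal of the table was reached by 52.7% of distal and 41.3% of proximal peaks. At the upper quartile distal peaks were above the table, with 155.0 and 133.0 reads against 129.0 and 124.0. Proximal peaks had 101.0 and 100.0 there. Width was alike, with a median of 1096.5 bp on distal 8q and 1076.0 bp below it. Signal moved with the fold change. With all peaks split into 4 equal classes by signal, from the lowest to the highest, the medians of distal peaks were 0.06, 0.16, 0.19 and 0.37, and those of proximal peaks 0.02, −0.02, 0.08 and 0.20. Distal medians were higher in each of the 4 classes, and the part of signal in the difference was not tested further.

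By the authors' annotation, 359 distal peaks lay in introns (39.7%), 282 were intergenic (31.2%), 213 lay in promoters within 3 kb of a start site (23.6%, Wilson 95% interval 20.9% to 26.4%), 27 in exons, 15 in 3′ UTRs and 6 in 5′ UTRs. The shares on proximal chromosome 8 were 42.3% introns, 31.9% intergenic and 21.3% promoters. Both are poorer in promoters than the table as a whole, where 34.3% of peaks were promoter peaks.

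Promoter and intronic peaks stood higher than intergenic ones. The median was 0.34 in promoters, with 180 of 213 above 0, and 0.26 in introns, at 0.24 in first introns (156 peaks) and 0.27 in later ones (203 peaks). It was 0.06 in intergenic peaks. The matching proximal medians were 0.21, 0.04 and −0.01. Of these 3 classes, introns had the widest gap to proximal chromosome 8. Of the 63 peaks with an unadjusted p below 0.05 and a higher value in the authors' deposited table, 37 were intronic, 17 were in promoters and 6 were intergenic, and of the 9 with a lower value, 7 were intergenic. Intergenic peaks were also shallower, with a median of 58.0 first-listed reads, beside 70.0 in introns and 152.0 in promoters. Over distal peaks at or above the median signal of the table, introns stood highest, at 0.42 (168 peaks). Promoters there had 0.35 (173 peaks) and intergenic peaks 0.015 (98 peaks). The part of depth in these values was not tested. Within the segment, distance from genes did not separate them: 77 intergenic peaks under 50 kb from a start site and 205 farther away both had a median of 0.06.

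The order of the classes, promoter, intron, intergenic, was the same in 3 of the 6 windows with a median of 0.20 or more. At 140 to 145 Mb, 82 promoter peaks had a median of 0.38 and 63 intronic peaks 0.31, while 51 intergenic peaks had 0.00, with 10933 first-listed and 10718 second-listed reads. At 130 to 135 Mb the 12 promoter, 44 intronic and 23 intergenic peaks had medians of 0.52, 0.22 and 0.09. At 125 to 130 Mb the intergenic median was 0.32 in 17 peaks, below 0.64 in 36 intronic and 0.70 in 10 promoter peaks. The order differed at 105 to 110 Mb, where 26 intronic peaks had 0.46, 12 promoter peaks 0.18 and 10 intergenic peaks 0.17, at 100 to 105 Mb, where the 35 intronic peaks had 0.44 and the 28 promoter peaks 0.36, and at 95 to 100 Mb, where the 5 intergenic peaks had 0.39, above 0.35 in 13 promoter and 0.28 in 28 intronic peaks.

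**Figure D2:**
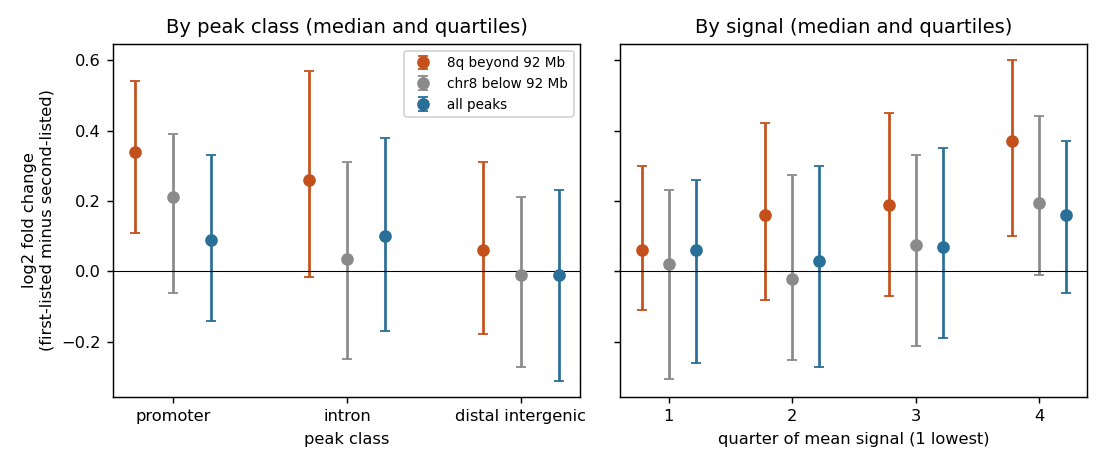
Median log2 fold change (first-listed minus second-listed) by peak class and by class of mean signal, for distal 8q, proximal chromosome 8 and all peaks, with bars from the lower to the upper quartile. Distal promoters (0.34) and introns (0.26) lie highest, distal intergenic peaks stand at 0.06, and distal 8q is above proximal chromosome 8 in each of the 4 signal classes.

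Of the 904 peaks, 577 could be placed in 185 genes. The other 284 were intergenic or downstream of a gene, and 43 lay in exons or introns whose host gene could not be matched. After 6 genes with only peaks of 1 read per column were set aside, the mean over a gene's peaks was above 0 in 149 of 179 genes (83.2%), beside 65.4% on proximal chromosome 8 and 61.3% over all genes. With equal reads in peaks the shares were 74.3%, 50.6% and 47.7%. The interval of a gene's summed reads lay wholly above 0 in 90 of 185 genes (48.6%) and wholly below 0 in 5 (2.70%). The shares were 26.6% and 5.58% on proximal chromosome 8, and 23.6% and 8.91% over all genes. These intervals were set against 0 and not against the 0.11 of the whole table.

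At the border, the last proximal peak lay in the 3′ UTR of RUNX1T1 (chromosome 8, 91979684 to 91981804) with 189 and 190 reads and a log2 fold change of 0.06. The first distal peak was a RUNX1T1 promoter peak at 92005108 to 92006048, with 97 first-listed and 149 second-listed reads. Its value was −0.56 (−0.95 to −0.18), with an unadjusted p of 0.156 in the authors' deposited table. RUNX1T1, a corepressor and the chromosome 8 partner of the fusion, had 8 peaks on both sides of the border. The 6 beyond it held 955 and 893 reads, a log2 ratio of 0.15 (0.02 to 0.29), and single peaks ran from −0.56 to 0.49. The 2 below it held 611 and 577 reads, at 0.14 (−0.03 to 0.31). Both values lay near the 0.11 of the whole table. Farther out, TRIQK, a small protein of the endoplasmic reticulum, had 3 peaks with 196 and 152 reads, at 0.42 (0.11 to 0.74).

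LRP12, a receptor of the LDL receptor family, held the lowest p of the segment. Its peak in intron 1 of 5 (chromosome 8, 104574975 to 104576850) had 232 first-listed and 103 second-listed reads, a value of 1.23 (0.89 to 1.58). All 7 LRP12 peaks were above 0, from 0.52 to 1.23, and together they held 1543 and 922 reads, a log2 ratio of 0.80 (0.68 to 0.92). EFR3A, which anchors a lipid kinase at the plasma membrane, had the highest value by the rule for named peaks. Its peak in intron 1 of 22 (131920335 to 131920824) had 130 and 57 reads, at 1.25 (0.79 to 1.72), with an unadjusted p of 0.00274 in the authors' deposited table. Its 5 peaks ran from 0.22 to 1.25. Outside that rule, because they had less signal or lay in no gene, a LAPTM4B intron peak with 73 and 31 reads reached 1.29, and an intergenic peak beside DENND3 with 74 and 32 reads reached 1.27. Both were singled out after their values were seen.

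CYRIB, listed under its older symbol FAM49B, codes for an inhibitor of RAC1-driven actin remodelling. Its promoter peak at 130014127 to 130015888 held 410 and 196 reads, a value of 1.12 (0.87 to 1.37), and an unadjusted p of 0.00186 in the authors' deposited table. All 13 CYRIB peaks were above 0, from 0.03 to 1.12, and 8 of them had an unadjusted p below 0.05 there. Their summed reads were 4346 and 2698, at 0.74 (0.68 to 0.81). Its neighbour ASAP1, an ARF GTPase-activating protein, had a 3′ UTR peak with 199 and 97 reads, at 1.09 (0.74 to 1.46). The 9 ASAP1 peaks, however, spread from −0.27 to 1.09.

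TRIB1 and PVT1 lie in the highest window. TRIB1 is a pseudokinase that brings the myeloid factor C/EBPα to degradation. It had 2 promoter peaks, with 705 and 406 summed reads, at 0.85 (0.67 to 1.03). PVT1 is a long non-coding RNA next to MYC. It had 18 peaks, 17 of them above 0, with 7302 and 4605 reads, at 0.72 (0.67 to 0.78), and in the authors' deposited table, of these, 10 had an unadjusted p below 0.05. Its highest was an intron peak at 127847590 to 127850213 with 488 and 257 reads, at 0.98 (0.76 to 1.21). MYC itself, the oncogenic transcription factor directly upstream, had 1 peak with 560 and 536 reads, at 0.12 (−0.05 to 0.29). The interval of this promoter peak lies wholly below that of the summed PVT1 reads, but both cover counting error only. With every peak given to its nearest gene, the means over peaks were 0.485 for MYC and 0.68 for PVT1. The size of the gap therefore depends on how peaks are placed.

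PTK2, the focal adhesion kinase, is the start of the longest unbroken stretch. Of 21 PTK2 peaks 20 were above 0, with 4273 and 2784 reads, a log2 ratio of 0.68 (0.61 to 0.74), and in the authors' deposited table, of these, 7 had an unadjusted p below 0.05. The highest, in intron 1 of 31 (140937828 to 140938864), had 272 and 134 reads, at 1.08 (0.77 to 1.39). From 140891373 to 141239714, across PTK2, DENND3 and part of SLC45A4, 32 peaks in a row exceeded the 0.11 of the whole table. They ran from 0.31 to 1.27 with a median of 0.56, and held 11459 and 8110 reads, at 0.56 (0.51 to 0.60). The longest such run on proximal chromosome 8 was 8 peaks, across LOXL2, ENTPD4 and SLC25A37. DENND3, an exchange factor for the GTPase RAB12, held the deepest peak of the segment, a promoter peak at 141170355 to 141175024 with 2402 and 1907 reads, at 0.39 (0.30 to 0.48). Its 11 peaks ran from 0.32 to 0.86. AGO2, the slicing protein of RNA interference, had the next deepest, in intron 1 of 18, with 1296 and 1158 reads, at 0.23 (0.10 to 0.34).

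**Figure D3:**
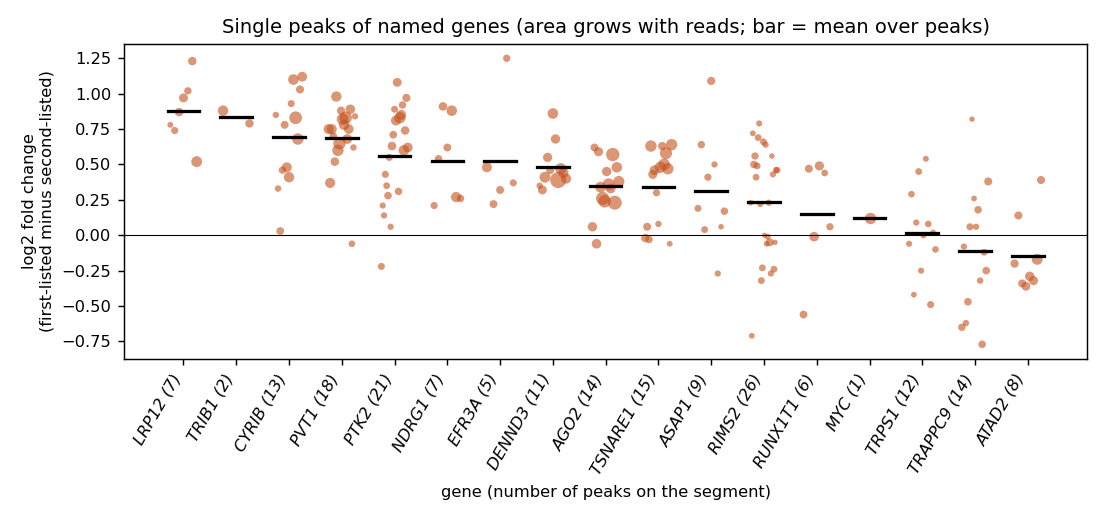
Log2 fold change of each peak (vertical axis, first-listed minus second-listed) of 17 named genes (horizontal axis, with their number of peaks), where point area grows with reads and bars are means over a gene's peaks. The peaks of LRP12 (0.52 to 1.23) and DENND3 (0.32 to 0.86) all lie above the table's 0.11, while those of RUNX1T1 spread from −0.56 to 0.49.

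The other high peaks of the rule belonged to genes with varied roles. ZNF250, a zinc finger gene near the end of the chromosome, had a promoter peak with 156 and 75 reads, at 1.12 (0.71 to 1.53). MATN2, a matrix protein, reached 0.99 in intron 10 of 18 with 159 and 83 reads. NDRG1, a gene known to respond to hypoxia and to differentiation, reached 0.91 in intron 3 of 15 with 228 and 126 reads, and its 7 peaks ran from 0.21 to 0.91. LRP12, EFR3A, NDRG1 and DENND3 each had 5 or more peaks, all above the 0.11 of the table.

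Other genes with many peaks differed. RIMS2, which organises release sites at synapses, had the most peaks, 26, with 16 above and 9 below 0, from −0.71 to 0.79. Its summed reads were 1603 and 1405, at 0.25 (0.14 to 0.35). TSNARE1, a SNARE protein, had 15 peaks, 12 of them above 0, with 5483 and 4081 reads, at 0.48 (0.42 to 0.54). TRAPPC9, a subunit of a tethering complex of the Golgi, had 14 peaks from −0.77 to 0.82, with 1008 and 1172 reads, at −0.16 (−0.28 to −0.04). It lies on the proximal side of AGO2 and PTK2.

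The lowest peaks by the same rule were smaller in size than the highest. MROH5 came first, with a 3′ UTR peak of 114 and 208 reads, at −0.80 (−1.15 to −0.47) and an unadjusted p of 0.0366 in the authors' deposited table. A TRAPPC9 peak in intron 9 followed with 76 and 135 reads, at −0.77. RUNX1T1 came next with the promoter peak given above. RAD54B, a DNA translocase of recombination repair, had a promoter peak with 98 and 147 reads, at −0.53 (−0.91 to −0.15). KIFC2, a kinesin, had 151 and 226 reads, at −0.52. Values from −0.49 to −0.36 belonged to TRPS1, EBAG9, RNF19A, C8orf82 and ATAD2. The 4 peaks at −1 or less were all intergenic, with 19 to 36 first-listed and 50 to 75 second-listed reads.

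The gene lists describe which functions the segment holds. They were chosen with earlier results known, and are described by counts and medians of the gene means. All their members lie on a segment selected for high values, where the median over measured genes was 0.30 and 83.2% were above 0, beside 0.10 and 61.3% over all genes of the table. A list near the segment's own level is therefore no result about its function. The list named for kinase and small GTPase signalling had the highest median, with 16 of 16 measured genes above 0, also with equal reads in peaks, and a median of 0.53. Several of its members are neither kinases nor regulators of GTPases, among them LRP12, a receptor, ANGPT1, a ligand, NDRG1, EFR3A, MTDH and the adenylate cyclase ADCY8. Of its 101 peaks, 28 had an unadjusted p below 0.05 and a higher value in the authors' deposited table, where 6.97% of distal and 3.37% of all peaks did. CYRIB held 8 of the 28, PTK2 7 and LRP12 4, so the count rests largely on a few genes with several peaks. Peaks of the same gene are not independent members of the list. LRP12, TRIB1, CYRIB and SLA led the list by mean. SLA, an adaptor that dampens antigen receptor signalling, had 2 promoter peaks with 254 and 166 reads, at 0.67 (0.38 to 0.96). PTP4A3, a phosphatase, was set aside, with 4 peaks of 1 read in each column.

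The list of genes known from blood cells or leukemia had 11 of 11 measured above 0 (10 with equal reads in peaks), with a median of 0.49 and 24 of 73 peaks with such a p, beside the same 6.97% and 3.37%. It also holds TG, the thyroid gene of thyroglobulin, with 6 peaks at a mean of 0.43. TRIB1, CYRIB, PVT1 and SLA led this list, and all of these but PVT1 also led the kinase and GTPase list. Of its 24 peaks with such a p, PVT1 held 10 and CYRIB 8, so this count too rests largely on a few genes. PLEC, a cytoskeletal linker, had 6 peaks from 0.07 to 0.82, with 1538 and 1102 reads. ANGPT1, a ligand of the TIE2 receptor, had 3 peaks from 0.27 to 0.81 with 282 and 187 reads. TRPS1, a GATA-type repressor, had 12 peaks with 647 and 669 reads, at 0.01 (−0.15 to 0.17). GSDMD and LY6E had 1 read in each column and were set aside.

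Nuclear genes of mitochondrial proteins were above 0 in 12 of 12 measured (11 with equal reads), with a median of 0.39. PDP1, which activates pyruvate dehydrogenase, had 167 and 112 reads at its promoter, at 0.63 (0.28 to 0.99). TMEM65, of the inner membrane, had 71 and 48 reads, at 0.62 (0.07 to 1.18). COX6C, a subunit of cytochrome oxidase, had 158 and 118 reads, at 0.48 (0.12 to 0.83). SQLE, placed in this list but known as an enzyme of sterol synthesis in the endoplasmic reticulum, had 204 and 137 reads, at 0.63 (0.31 to 0.95). CYC1, of respiratory complex III, and ADCK5 stood lower, at 0.32 and 0.02.

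Genes of translation were above 0 in 9 of 9 measured, also with equal reads, with a median of 0.31 and no peak with such a p. DCAF13, a factor of ribosome biogenesis, led with 106 and 72 reads, at 0.62 (0.17 to 1.07). MTERF3, RPL30 and AGO2 had means of 0.38, 0.34 and 0.35. EIF3E and EIF3H, subunits of an initiation factor, had 8 peaks each, at 0.38 (0.24 to 0.53) and 0.24 (0.12 to 0.36). Genes of ubiquitin and protein turnover were above 0 in 8 of 8 (7 with equal reads), with a median of 0.40. FBXO32, a ligase adaptor of muscle wasting, led with 74 and 42 reads, at 0.87 (0.31 to 1.46). RNF139, a membrane-bound ligase, had 530 and 361 reads, at 0.61 (0.42 to 0.81).

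Genes of transcription and chromatin were above 0 in 19 of 21 measured (15 with equal reads), with a median of 0.34. ZNF250, PHF20L1, ZFAT and ZHX2 led with means of 0.92, 0.84, 0.77 and 0.76. PHF20L1, a reader of methylated lysine, had 232 and 135 reads at its promoter. HSF1, the heat shock factor, had 335 and 280 reads, at 0.32 (0.08 to 0.55). Membrane traffic and transport had 14 of 16 above 0 (13 with equal reads) and a median of 0.32, led by WASHC5, LAPTM4B, SLC39A4 and GRINA at means of 0.69, 0.68, 0.65 and 0.62. The list of RUNX1T1 and chosen distal neighbours had 6 of 6 above 0, also with equal reads, at a median of 0.50. PDP1, CIBAR1, TRIQK and CDH17 were highest. The list does not hold every measured gene of that stretch. Over all its peaks, the median was 0.06 at 92 to 93 Mb, with 12 of 21 above 0. It was 0.245 at 93 to 94 Mb (13 of 16) and 0.19 at 94 to 95 Mb (12 of 13).

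DNA replication, repair and cell cycle was the one list with a median below 0, at −0.14, with 3 genes above and 5 below 0 under both scalings. ATAD2, a chromatin ATPase linked to replication, had 8 peaks, 6 of them below 0, with 1583 and 1859 reads, at −0.17 (−0.27 to −0.08). DSCC1, of an alternative clamp loader, had 48 and 68 reads, at −0.45 (−1.01 to 0.11). TONSL, which reads new histones whose H4 lysine is still unmethylated, had 162 and 205 reads, at −0.28 (−0.59 to 0.02). RAD21, the cohesin subunit, had 133 and 151 reads, at −0.13 (−0.47 to 0.22). Only RAD54B and ATAD2 of the 5 had intervals wholly below 0. NSMCE2, a SUMO ligase of the SMC5/6 complex, went the other way with 423 and 323 reads, at 0.45 (0.23 to 0.66). No peak of CCNE2, POP1, RECQL4, RRM2B or TP53INP1 was placed in these genes. With every peak given to its nearest gene, the list's median was 0.02, so its sign depends on how peaks are placed.

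Markers of other tissues were near the level of the segment. Neuronal and long genes were above 0 in 8 of 9 (6 with equal reads), with a median of 0.25, and epithelial and other tissue genes in 9 of 10 (8 with equal reads), with a median of 0.29. ADGRB1, an adhesion receptor of the brain, had 711 and 544 reads, at 0.44 (0.28 to 0.61), and SAMD12 had 113 and 150, at −0.35 (−0.72 to 0.01). GRHL2, an epithelial factor, had 1 peak with 70 and 91 reads, at −0.32 (−0.79 to 0.14), and ESRP1 had none. CCN4, a secreted matricellular protein, had 221 and 152 reads, at 0.60 (0.29 to 0.90).

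**Figure D4:**
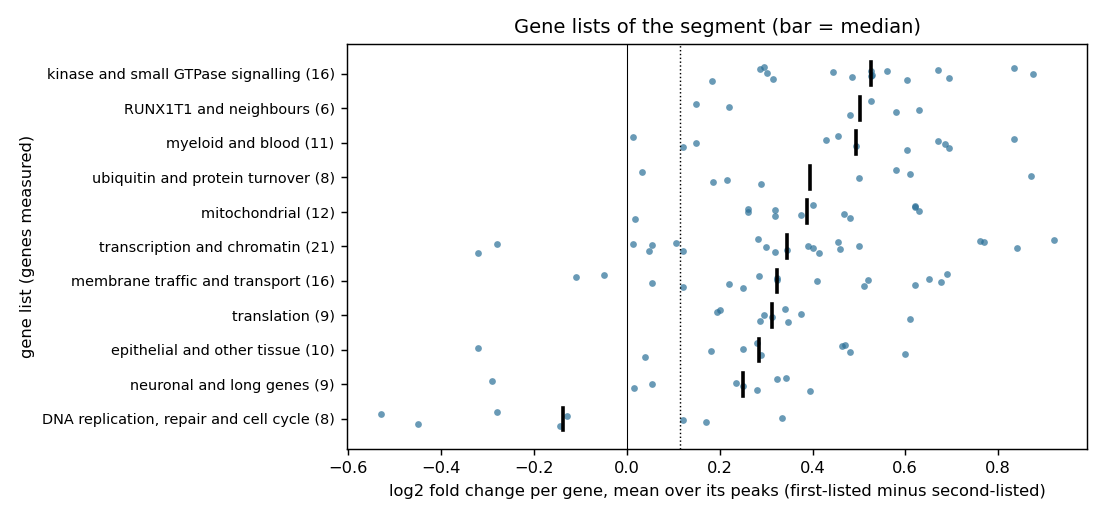
Mean log2 fold change per gene (first-listed minus second-listed) for each of the 11 gene lists, with genes as points, the list median as a bar and a dotted line at the table's 0.11. The kinase and GTPase list has the highest median (0.53) and the replication and repair list the lowest (−0.14).

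In 14 distal peaks both columns stood at 1 read, the lowest value the recovery allows, and their listed fold change was 0.06. They are counted as above 0 in the counts over peaks, lay between 141386649 and 143823263, and 6 of them were promoter peaks, of LY6E, GSDMD, EEF1D, ZNF623, ZNF707 and PUF60. They made up 1.55% of distal peaks, beside 3.06% of proximal and 2.54% of all peaks. Without them, 627 of 890 distal peaks (70.4%) were above 0, against 53.4% of proximal peaks. A FAM135B intron peak with 2 and 1 reads, at 1.06, is among the 16 distal peaks at 1 or more.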

How the data were processed

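H4K20me1 CUT&Tag was measured in 4 Kasumi-1 libraries, 2 per group. The submitters' processing notes name build hg38 and, with no version, Bowtie2, cutadapt and DESeq. The peak caller, duplicate handling and libraries per column were not given in the sources used here. The authors deposited 1 table with a log2 signal per peak in each of 2 columns, their log2 fold change, and an unadjusted and an adjusted p-value. All p-values are the authors'.

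Log2 values from 1.5 to 5.5 equal log2 of whole reads plus a constant (0 and −0.057) within 0.0051. Reads are exact to 144 and rounded within 0.347% above. No test was made, as the table has 1 column per group. Exon and intron peaks were given to the host gene, and promoter and UTR peaks to the nearest gene, with symbols from RefSeq (GRCh38.p14). Python 3.11.15, pandas 2.3.3, SciPy 1.17.1, NumPy 2.4.6 and matplotlib 3.10.9 were used, and the read recovery and intervals were tested on simulated data.

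Named peaks were the 10 highest and 10 lowest fold changes at or above the median signal of all peaks, 1 per gene, leaving out LOC, LINC, antisense and small RNA genes, and the 2 deepest. Named genes were the 5 with most peaks, RUNX1T1 and measured genes within 1 Mb of the border, and up to 4 per list by size of the mean. Further list members were named after their values were seen. The members and the lists were chosen with earlier results of these data known. One result on a named gene is not reported here.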

Additional observations from a re-analysis of the deposited data

How the results depend on the processing

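No paired analysis was possible because the deposited table holds 1 column per group, and for the same reason no library could be left out. The median of distal 8q (0.21) was 0.10 with equal reads in peaks, 0.15 without scaling, 0.30 over peaks at or above the median signal, 0.31 from summed reads and 0.29 per gene. Its excess over proximal chromosome 8 (0.15) was 0.20 from summed reads, 0.22 in introns and 0.07 in intergenic peaks. The highest window median (0.50) was 0.32 in 10 Mb windows. The lowest (−0.04) was −0.17 in 2 Mb and 0.01 in 10 Mb windows. The 16 peaks at 1 or more became 214 at 0.5 and 7 with equal reads. The 63 peaks with a higher value and an unadjusted p under 0.05 became 13 at 0.01 and 0 at an adjusted p of 0.1, and the 9 lower ones 2, 0 and, over peaks with more signal, 1. Peaks per Mb (17.1) were 8.98 over peaks with more signal. The promoter share (23.6%) was 17.3% within 1 kb and 36.3% over peaks with more signal. The median over genes (0.29) was 0.18 with equal reads. RNF19A (0.03) turned to −0.082 with equal reads and −0.10 over peaks with more signal. TRPS1 (0.01) turned to −0.10, −0.02 and, by nearest gene, −0.22. The replication list (−0.14) turned to 0.017 by nearest gene. The cause of the last 3 was not tested beyond these values. Leaving out the 2 highest windows or the last window was added after seeing the data. The median was then 0.18 or 0.19, and the excess 0.12 or 0.13. Averaging within 4 signal classes and taking window medians were added likewise for the excess alone, which was 0.13 and 0.14.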
